A study of Homo sapiens with 6 samples.

Results

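The vector group comprised 3 of the 6 libraries of the series, all from SW620 cells transduced with the empty pLVX-IRES-Puro lentivirus. They were chosen by their label alone, and the other 3 libraries, from cells given an ELAPOR1 construct, were not analysed here. SW620 is an established human line from a lymph node metastasis of a colorectal cancer. Per the labels, virus was packaged in HEK293T cells and added at a multiplicity of infection of 20, selection used 2 ug/ml puromycin, and cells grew in DMEM with 10% serum. Poly(A) RNA from 1 ug of total RNA was reverse transcribed with random primers. The libraries carry the numbers 1 to 3, and no label ties them to separate cultures, so the spread between them may be technical. The group holds no parental line, so every level below is that of transduced, drug-selected cells in culture.

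The colon is lined by a single layer of epithelium in which stem cells at the crypt base, kept dividing by Wnt signals, give rise to absorptive colonocytes, mucus-secreting goblet cells and hormone-secreting enteroendocrine cells. Each fate has its own transcription factors and products, so a transcript inventory shows which of these programs a line still runs. Most colorectal cancers carry lesions that keep the Wnt pathway active without a Wnt ligand. Which growth factor receptors, death receptors and metabolic enzymes such a line transcribes bears on which signals, nutrients and drugs it can respond to in culture. No response was measured here.

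The libraries held 19410332, 20571924 and 16401813 counts over 60605 genes. Levels are FPKM, the count of a gene scaled to its exonic length in kilobases and to the library total, which allows genes to be compared per length. A gene was called expressed when it reached at least 1 FPKM in all 3 libraries, and a mean is given ± SD over the 3 libraries (n = 3). Of the 19861 protein-coding genes, 10143 were expressed (51.1%), 429 reached 1 FPKM in some libraries only, 5330 stayed under it in each library, and 3959 had 0 counts throughout (19.9%). The shares of 51.1% expressed and 19.9% without a count are the background for every list below. The median level was 1.31 FPKM over all protein-coding genes and 8.03 FPKM over those expressed.

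The levels were steep: 290 protein-coding genes at 100 FPKM or more held 26.5% of all counts, and 4029 genes between 10 and 100 FPKM held 50.3%. A further 6035 genes between 1 and 10 FPKM held 18.7%, while 5548 genes with a count but under 1 FPKM held 0.651%. The plot of the distribution of levels shows a single peak above 1 FPKM and a flat shoulder below it.

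**Figure D1:**
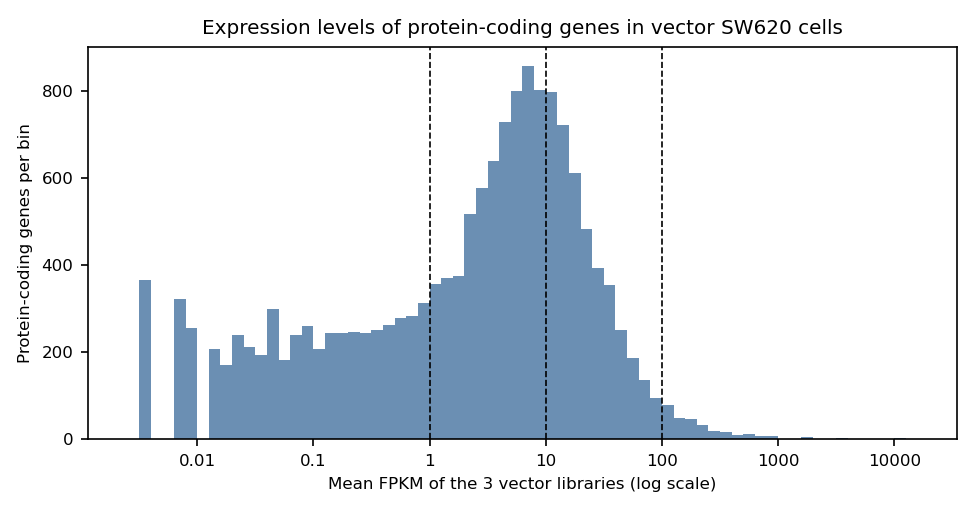
Histogram of the mean FPKM of protein-coding genes over the 3 vector libraries on a log scale, with dashed lines at 1, 10 and 100 FPKM and the 3959 genes without a count left out. The peak lies between 1 and 10 FPKM, and the 290 genes to the right of the last line held 26.5% of all counts; the gaps at the far left come from values deposited with 2 decimals.

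The mitochondrial genome, which encodes subunits of the respiratory chain, gave the highest levels. MT-CO3, MT-CO1 and MT-CO2, the 3 subunits of cytochrome c oxidase made in the organelle, stood at 12065 ± 109.8 FPKM, 10310.2 ± 87.4 FPKM and 9804 ± 235 FPKM. All 13 mitochondrial mRNAs lay above 100 FPKM, with a median of 2594 FPKM, and together took between 5.28% and 5.37% of counts. Among the 15 highest protein-coding genes, the others were MT-ND4, MT-ATP6, MT-CYB, MT-ND2, MT-ND3, MT-ND1, MT-ND4L, MT-ND5, TMSB10, GAPDH, FTH1 and RPS2. Below some processed pseudogenes described further on, TMSB10, a small actin-binding thymosin, was the highest nuclear protein-coding gene at 1636, 1730.3 and 1785 FPKM (mean 1717 ± 75.2). GAPDH, the glycolytic dehydrogenase, followed at 1693, 1728 and 1713 FPKM (mean 1711 ± 17.5), and the values of the pair overlapped between libraries. FTH1, the heavy chain of the iron store ferritin, reached 1018 ± 20.2 FPKM, with 62.4% of its exonic bases shared with another annotated gene. The 10 most counted genes took 6.94% to 7.07% of a library's counts and included the keratin KRT8 and NKD1, a feedback inhibitor of Wnt signalling.

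The 3 libraries were close to each other. Across the 27777 genes with a count, Pearson's r of log2(FPKM + 1) lay between 0.98888 and 0.98968 for the 3 pairs, a value across genes, which are not independent replicates. Among 12408 genes with a mean of at least 1 FPKM, the median coefficient of variation (SD over mean) was 5.52%. The counting error expected from each gene's mean count had a median of 3.95%. That is a theoretical SD, whereas the median SD of 3 values tends to lie under the true SD, so they are not directly comparable. The median coefficient of variation fell from 7.68% for genes at 1 to 10 FPKM to 3.55% at 10 to 100 FPKM and 2.64% above. The 10 most variable expressed protein-coding genes were SMN1, TMEM238, CLIC3, ERICH2, CMC4, UBD, GAL3ST2, ARHGEF25, KRTAP3-2 and CCN6. Apart from SMN1, each had only 91 to 277 counts over the 3 libraries, where counting error is large. CMC4 and UBD share 91.2% and 76.9% of exonic bases with another annotated gene. SMN1, which encodes a splicing assembly factor and has a near-identical copy in SMN2, stood first at 9.73, 7.47 and 17.9 FPKM (mean 11.7 ± 5.46). SMN2 stood at 4.68, 5.65 and 5.82 FPKM (mean 5.38 ± 0.615), so library 3 was high for SMN1 and not for its copy, and the split of reads between the pair is uncertain.

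Simple epithelial keratins, the intermediate filaments of single-layered epithelia, ranked among the highest nuclear protein-coding genes. KRT18 stood at 776, 801 and 807 FPKM (mean 795 ± 16.9), its filament partner KRT8 at 589, 625 and 611 FPKM (mean 609 ± 17.9) and KRT19 at 327, 346 and 355 FPKM (mean 342 ± 14.4). KRT18 lay above KRT8 and KRT8 above KRT19 in every pair of libraries, and KRT18 made up 45.3% of the summed FPKM of the 5 simple keratins. KRT20, the keratin of differentiated colonic surface cells, was only at 1.35, 1.19 and 0.92 FPKM (mean 1.15 ± 0.217), below KRT7, a keratin of other glandular epithelia, at 8.88, 9.43 and 9.38 FPKM (mean 9.23 ± 0.304). Of 16 keratins in the list, 8 were expressed, against 51.1% of protein-coding genes, with a median of 1.35 FPKM. Among keratins of stratified epithelia, KRT10 was expressed at 9.86, 10.1 and 9.92 FPKM (mean 9.95 ± 0.108) and KRT17 lay at the threshold at 1.13, 1.04 and 0.98 FPKM (mean 1.05 ± 0.0755). KRT5, KRT6A, KRT13, KRT4 and KRT14 were under 1 FPKM, and KRT1 had 0 counts, which allows up to 0.0214 FPKM. Counting limits of this kind rest on 3 counts over the 3 libraries and cover counting error only, since amplified reads without molecular identifiers are not independent molecules.

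Surface markers of colonic epithelium were present in part. EPCAM, the epithelial adhesion molecule, stood at 178, 181 and 188 FPKM (mean 182 ± 5.21), VIL1, the actin bundler of the brush border, at 59.4, 59.9 and 59.6 FPKM (mean 59.6 ± 0.241), and ESRP1, an epithelial splicing factor, at 37.9, 40.4 and 39.1 FPKM (mean 39.1 ± 1.24). CDH17, the liver-intestine cadherin, was low at 2.4, 2.62 and 2.56 FPKM (mean 2.53 ± 0.114). GPA33, the A33 antigen used as a colonic marker, was below 1 FPKM in each library at 0.37, 0.25 and 0.37 FPKM (mean 0.33 ± 0.0693), and so was LGALS4, an intestinal galectin, at 0.19, 0.24 and 0.14 FPKM (mean 0.19 ± 0.05). In all, 11 of 18 members were expressed, with a median of 4.66 FPKM and no member without a count. Measured against the 11 markers used to check the labelled cell type, EPCAM, KRT8, KRT18, KRT19, VIL1, CDX2 and CDH17 were expressed, KRT20 was expressed in libraries 1 and 2 only, and CDX1, GPA33 and LGALS4 were not.

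Transcription factors that set intestinal identity were split in the same way. CDX2, the master regulator of intestinal fate, stood at 8.79, 9.07 and 9.93 FPKM (mean 9.26 ± 0.594), whereas its paralog CDX1 had 2 counts in all 3 libraries together. HNF4A, a nuclear receptor of enterocytes, stood at 14.4, 12.7 and 14.2 FPKM (mean 13.8 ± 0.925), and KLF5, a factor of proliferating crypt cells, was the highest of the list at 109, 107 and 107 FPKM (mean 108 ± 0.954). The next was SOX2, a pluripotency and foregut factor that the adult colon does not normally transcribe, at 62.1, 61.6 and 61.7 FPKM (mean 61.8 ± 0.27), followed by the epithelial ETS factor EHF at 39.4, 38.5 and 38.7 FPKM (mean 38.9 ± 0.514). SOX2 was thus above CDX2 in every pair of libraries. The pioneer factors FOXA2 and FOXA3 were expressed at 24.2 ± 0.802 FPKM and 12.3 ± 0.652 FPKM, while FOXA1 and GATA5 had 0 counts, allowing up to 0.0121 and 0.0203 FPKM. Of the 29 factors listed, 13 were expressed, with a median of 0.907 FPKM.

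The HOX genes, which record position along the body axis, were transcribed mainly from the HOXA, HOXB and HOXC clusters. Of 39 genes, 25 were expressed, with a median of 2.9 FPKM. HOXA9 led at 29.1, 33.8 and 33.6 FPKM (mean 32.2 ± 2.69), then HOXB9 at 28.7, 30.1 and 29.1 FPKM (mean 29.3 ± 0.707), HOXB7 at 28, 27.1 and 26.9 FPKM (mean 27.3 ± 0.588) and HOXB6 at 23.8, 24.3 and 25.1 FPKM (mean 24.4 ± 0.701). HOXC10 stood at 21.6 ± 0.278 FPKM and HOXC13 at 6.87 ± 0.14 FPKM. In the HOXD cluster only HOXD9 was expressed, at 4.49, 4.75 and 3.23 FPKM (mean 4.16 ± 0.813), and HOXD1, HOXD3 and HOXD12 had 0 counts, as did HOXB1. HOXA9 shares 27% and HOXB6 32.9% of exonic bases with another annotated gene. Among the most posterior genes, HOXB13 was at 1.63 ± 0.15 FPKM and HOXA13 at 0.577 ± 0.0777 FPKM, and HOXD13 had 2 counts, so HOXC13 was the highest paralog of that group in each library.

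**Figure D2:**
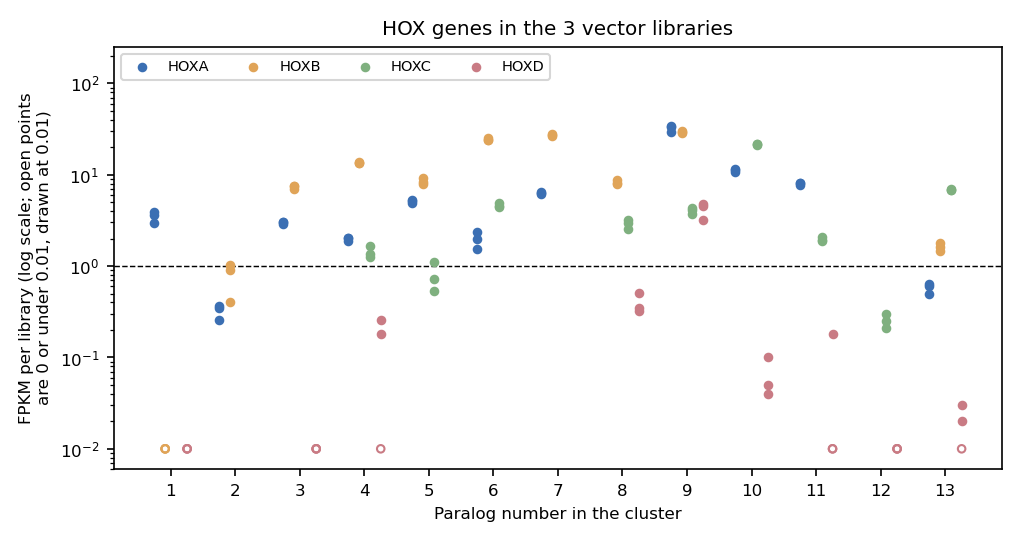
FPKM in each of the 3 vector libraries (points, log scale) for the 39 HOX genes by paralog number and cluster, with open points for values under 0.01 and a dashed line at 1 FPKM. HOXA, HOXB and HOXC genes lie mostly above the line, and in HOXD only HOXD9 does.

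Most listed products of differentiated cells were under 1 FPKM. Of 24 genes of absorptive colonocytes and enterocytes, 5 were expressed and 11 had no count, beside backgrounds of 51.1% and 19.9%, and the median was 0.01 FPKM. The expressed members were led by CEACAM5, the carcinoembryonic antigen, at 23.8, 24 and 25.1 FPKM (mean 24.3 ± 0.721), CEACAM6 at 24, 21.4 and 23.6 FPKM (mean 23 ± 1.36) and CEACAM1 at 5.14 ± 0.667 FPKM, 3 close paralogs between which reads can be shared. Genes with 0 counts included SLC26A3, the chloride-bicarbonate exchanger of the colonic surface, the carbonic anhydrases CA1 and CA4, the water channel AQP8, the brush border alkaline phosphatase ALPI and sucrase-isomaltase, SI. Carbonic anhydrase CA2 had 2 counts in all. These values allow up to 0.0157 FPKM for SLC26A3 and 0.0384 FPKM for AQP8. Also expressed, in this or another list, were USH1C at 27.4 FPKM, SLC9A3 at 3.02 FPKM, CDHR2 at 2.12 FPKM and BEST4 at 1.74 FPKM. VIL1 of the brush border, given above, was expressed too.

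Goblet and Paneth cell genes were likewise mostly silent, with 5 of 25 expressed, 8 without a count and a median of 0.03 FPKM. TFF3, a trefoil peptide of goblet cell mucus, was the exception at 66.4, 61.7 and 67.1 FPKM (mean 65.1 ± 2.92), followed by the membrane mucin MUC13 at 28.6, 26.6 and 26.8 FPKM (mean 27.3 ± 1.1) and the gastric trefoil peptide TFF2 at 7.08, 7.79 and 8.02 FPKM (mean 7.63 ± 0.49). MUC2, the main gel-forming mucin of the colon, was near 0 at 0.07, 0.03 and 0.03 FPKM (mean 0.0433 ± 0.0231). ATOH1, which commits cells to the secretory lineage, CLCA1, ZG16, MUC17, ITLN1 and REG4 had 0 counts. TFF3 was therefore present without the mucin and the factor that accompany it in goblet cells. Of 20 enteroendocrine and tuft cell genes, 1 was expressed, ENO2, an enolase that is also a glycolytic enzyme, at 12.8, 11.7 and 11.7 FPKM (mean 12.1 ± 0.662), and the list's median was 0.0233 FPKM. SYP, a synaptic vesicle protein, and CHGB, a granin, followed at 1.02 ± 0.172 FPKM and 0.73 ± 0.05 FPKM, and NEUROD1, NEUROG3, INSM1, SST and GCG had 0 counts.

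Genes of crypt stem cells and of Wnt output showed the opposite pattern, with 23 of 27 expressed and a median of 6.86 FPKM beside 1.31 FPKM over all protein-coding genes. NKD1 was highest at 209.8, 180.4 and 189.9 FPKM (mean 193 ± 15), and library 1 lay above the other 2. NOTUM, a secreted enzyme that inactivates Wnt ligands, stood at 110.0, 117 and 116 FPKM (mean 114 ± 3.8), and AXIN2, the scaffold that limits beta-catenin, at 33.6, 33.2 and 32.5 FPKM (mean 33.1 ± 0.593). These 3 feedback inhibitors thus ranked among the better transcribed genes of the cell. The stem cell factors SOX9 and ASCL2 were at 49.7, 48.6 and 53.9 FPKM (mean 50.7 ± 2.82) and 34.3, 33.1 and 33.6 FPKM (mean 33.7 ± 0.577), and the R-spondin receptors LGR5 and LGR6 at 11.7, 11.3 and 12 FPKM (mean 11.7 ± 0.354) and 15.2, 16.2 and 17.9 FPKM (mean 16.4 ± 1.35). LGR6 lay above LGR5 in every pair of libraries, and their relative LGR4 was lower at 1.88 ± 0.0153 FPKM. OLFM4, a secreted crypt base marker, had 0 counts, allowing up to 0.0187 FPKM. Among the TCF/LEF factors that bind beta-catenin on DNA, TCF7L2 made up 63.5% and TCF7 29.4% of the summed FPKM, while LEF1 stayed under 1 FPKM at 0.4, 0.47 and 0.57 FPKM (mean 0.48 ± 0.0854).

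**Figure D3:**
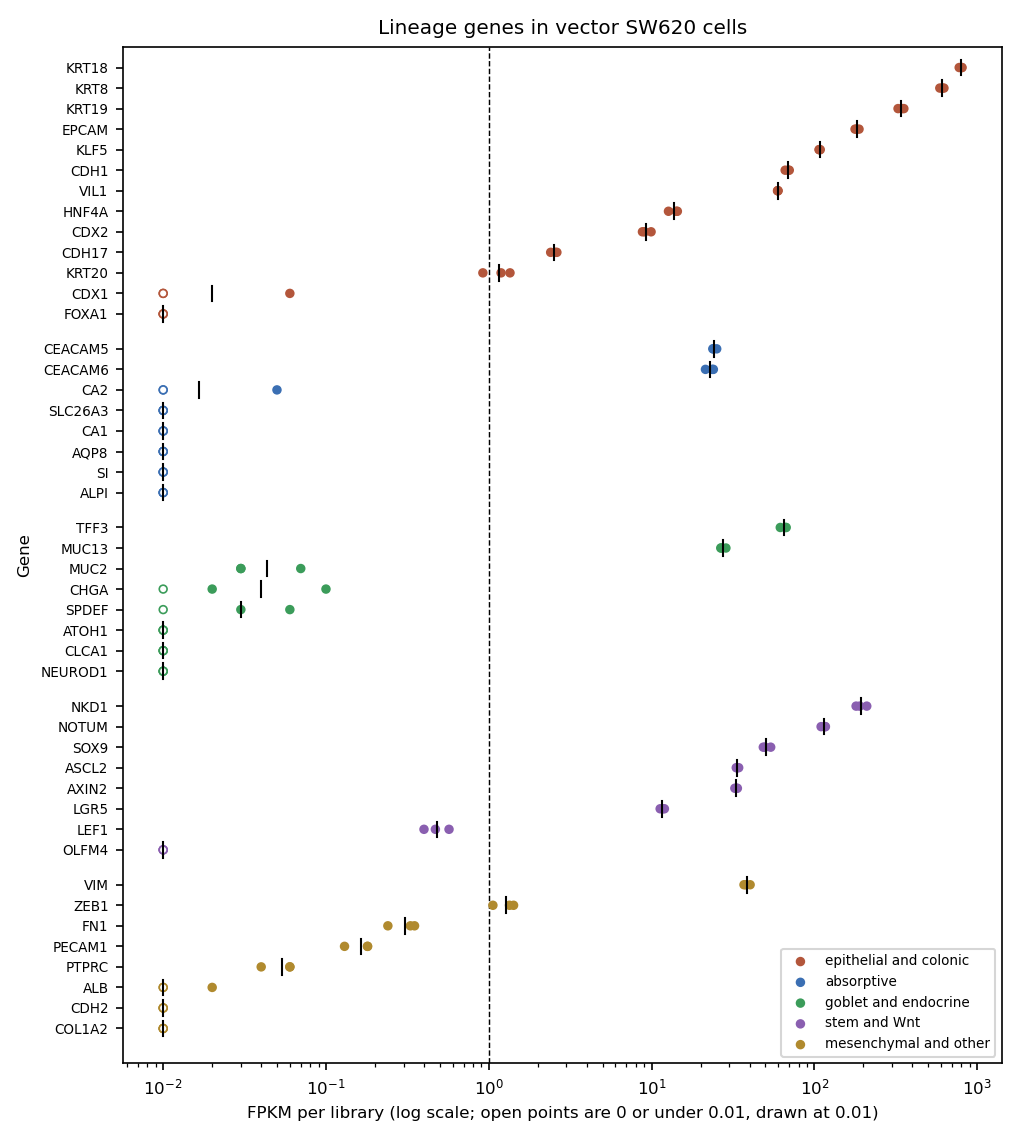
FPKM in each of the 3 vector libraries (points, log scale) for genes of epithelial identity and differentiation, with short bars at the mean, open points for values under 0.01 and a dashed line at the 1 FPKM threshold. Keratins, EPCAM and Wnt output genes lie far to the right of the line, and genes of absorptive, goblet and endocrine cells lie mostly at the left edge.

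Adhesion genes were mostly on: 16 of 21 junction genes were expressed, with a median of 13.7 FPKM. E-cadherin, CDH1, stood at 70.1, 66.2 and 69.2 FPKM (mean 68.5 ± 2.07), alpha-catenin, CTNNA1, at 66.3, 65.5 and 66.3 FPKM (mean 66 ± 0.477), desmoplakin, DSP, at 61.8, 54.3 and 58 FPKM (mean 58 ± 3.73), and beta-catenin, CTNNB1, at 46.5, 46.5 and 47.9 FPKM (mean 47 ± 0.805). CDH1 and CTNNA1 overlapped between libraries. P-cadherin, CDH3, and CLDN2 were close to 0. Of 19 mesenchymal genes, 7 were expressed with a median of 0.307 FPKM. S100A4, a calcium-binding protein of motile cells, stood out at 464, 473 and 473 FPKM (mean 469.7 ± 5.27), followed by VIM, the mesenchymal intermediate filament, at 37, 37.9 and 40.3 FPKM (mean 38.4 ± 1.72) and the matrix protein TGFBI at 28.1, 27.5 and 27.6 FPKM (mean 27.7 ± 0.337). N-cadherin, CDH2, and the factors ZEB2 and TWIST1 had 1, 6 and 1 counts, while ZEB1 was expressed at 1.42, 1.34 and 1.06 FPKM (mean 1.27 ± 0.189). High E-cadherin transcript and vimentin transcript were therefore measured in the same libraries; in bulk RNA, fewer cells with a transcript and less transcript per cell cannot be told apart.

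Most markers of other cell types were under 1 FPKM. No gene was expressed among 10 immune or other blood cell, 6 endothelial and 8 melanocyte or muscle markers. The highest of each were NKG7 at 0.75 ± 0.173 FPKM, PECAM1 at 0.163 ± 0.0289 FPKM and PMEL at 0.353 ± 0.153 FPKM. The summed level of the immune markers lay between 0.83 and 1.54 FPKM and that of the endothelial markers between 0.28 and 0.31 FPKM. After NKG7, CD14 and CD3E were the next immune markers, and CD3D and MS4A1 had 0 counts. The same held for HBB, a red blood cell gene in the same list. CDH5, KDR and TEK among endothelial markers and TYR among melanocyte markers also had 0 counts. VWF followed PECAM1 at 0.127 ± 0.0153 FPKM and CLDN5 had 1 count, and TTN and DES followed PMEL at 0.283 ± 0.0289 FPKM and 0.213 ± 0.0153 FPKM. Among 9 fibroblast markers only LUM, a matrix proteoglycan, was expressed, at 5.61, 5.95 and 5.3 FPKM (mean 5.62 ± 0.325), whereas COL1A2, COL3A1, DCN and PDGFRA had 0 counts and COL1A1 and PDGFRB stayed at 0.287 ± 0.0153 FPKM and 0.0833 ± 0.0153 FPKM. SERPINA1, the protease inhibitor of liver secretions, was the only expressed one of 8 liver markers at 3.21, 3.2 and 2.79 FPKM (mean 3.07 ± 0.24), with APOA1 next at 0.05, 0.04 and 0.56 FPKM (mean 0.217 ± 0.297), high in library 3 and at a mean of 0.045 FPKM without it. TF and FGB followed with 18 and 4 counts in all, and TTR and AFP had no count. Of 10 kidney and neural markers, PAX8, a kidney and thyroid factor, and TUBB3, a neuronal tubulin, were expressed at 1.56 ± 0.376 FPKM and 1.21 ± 0.132 FPKM, NPHS1 had 14 counts, and NEFM and UMOD had 0 counts. Cancer-testis antigens, genes of the germ line that many tumours switch on, were mostly off, with 2 of 20 expressed and 11 without a count, among them MAGEA1, MAGEA4, MAGEC1, MAGEC2, SSX1 and SSX2. LAGE3, which is also transcribed in normal tissues, stood at 4.65 ± 0.0404 FPKM, MAGEB2 at 1.42 ± 0.221 FPKM, and PRAME had 12 counts.

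Promoter sequences from RefSeq (assembly GRCh38.p14) were available for 15143 of 19816 protein-coding genes and for 605 list symbols. The 250 bases before the listed start were read. Only the first listed start of a gene was used, and whether these cells use that start was not tested. A window can therefore lie away from the promoter in use. RB1, expressed at 19.5 FPKM, had no CG pair in its window. The CpG ratio is the number of CG pairs over the number that the base composition gives. Its median fell from 0.869 for genes at 100 FPKM or more to 0.859, 0.822 and 0.573 over the next 3 bands and to 0.296 for the 2729 genes without a count. A ratio of at least 0.6 was found in 90.0% of promoters of the highest band, 25.8% of those without a count and 64.3% of all. The letters GGGCGG (a GC box, either strand) were present in 70.1% and 28% of these windows and 56.7% of all, and TATAAA (either strand) in 12.1%, 19.8% and 9.19%. TATAAA was less frequent in the 3 middle bands, at 4.50%, 4.78% and 11.2%. CCAAT (either strand) was in 43.7% of the highest band, 35.4% of those without a count and 34.8% of all. Among list members with a promoter, 256 of 323 expressed genes and 28 of 86 genes without a count had a ratio of at least 0.6. A match of letters is a description and not a binding site.

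The following 4 promoters show the range, 1 gene for each pairing of high level or no count with many or few CG pairs, and were chosen after their values were seen. They run 5′ to 3′ on the gene's strand, with CG pairs in capitals. PSAT1 (chr9:78296875-78297124, plus strand, 30 CG pairs, ratio 1.13) stood at 246 ± 2.38 FPKM, and S100A4 (chr1:153545807-153546056, minus strand, 7 CG pairs, ratio 0.284) at 469.7 ± 5.27 FPKM. FOXA1 (chr14:37595250-37595499, minus strand, 26 CG pairs, ratio 0.977) and SI (chr3:165078497-165078746, minus strand, no CG pair) had no count.
PSAT1: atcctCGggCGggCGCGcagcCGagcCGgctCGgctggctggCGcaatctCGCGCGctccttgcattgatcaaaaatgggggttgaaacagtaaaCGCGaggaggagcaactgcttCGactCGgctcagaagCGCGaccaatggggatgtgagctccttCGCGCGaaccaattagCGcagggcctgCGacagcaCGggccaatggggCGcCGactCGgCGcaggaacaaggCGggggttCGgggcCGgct
S100A4: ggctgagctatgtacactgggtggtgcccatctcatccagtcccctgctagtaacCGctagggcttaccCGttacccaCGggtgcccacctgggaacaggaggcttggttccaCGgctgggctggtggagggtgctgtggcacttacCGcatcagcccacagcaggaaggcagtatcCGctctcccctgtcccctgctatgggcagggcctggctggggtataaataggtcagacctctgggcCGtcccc
FOXA1: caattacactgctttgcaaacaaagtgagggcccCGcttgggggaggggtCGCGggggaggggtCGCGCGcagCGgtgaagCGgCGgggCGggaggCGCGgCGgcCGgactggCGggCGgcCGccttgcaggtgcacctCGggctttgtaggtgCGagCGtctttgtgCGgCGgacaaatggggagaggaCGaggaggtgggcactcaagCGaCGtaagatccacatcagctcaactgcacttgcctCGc
SI: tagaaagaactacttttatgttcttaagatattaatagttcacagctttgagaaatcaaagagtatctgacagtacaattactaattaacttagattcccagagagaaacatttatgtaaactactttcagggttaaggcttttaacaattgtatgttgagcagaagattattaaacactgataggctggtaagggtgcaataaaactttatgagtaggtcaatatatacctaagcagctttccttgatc
FOXA1 thus had no count although its window holds 26 CG pairs, and S100A4 was high with 7 in the window read.

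Among 46 oncogenes and cell cycle drivers, 39 were expressed, with a median of 10.3 FPKM. The spindle factor TPX2 was highest at 103, 106 and 103 FPKM (mean 104 ± 1.96), then MYC, the growth-promoting transcription factor, at 75.4, 77.4 and 77 FPKM (mean 76.6 ± 1.09), and CDK4 and its partner cyclin D1, CCND1, at 70.3, 69.3 and 68.8 FPKM (mean 69.5 ± 0.814) and 68.1, 69 and 67.6 FPKM (mean 68.2 ± 0.732). CDK4 and CCND1 overlapped between libraries. MYC made up 99.1% of the MYC family, since MYCL stood at 0.733 ± 0.117 FPKM and MYCN had 0 counts, allowing up to 0.0203 FPKM. LCK, the SRC-family kinase of T cells, was at 52.2, 51.7 and 52 FPKM (mean 52 ± 0.26), far above SRC itself at 5.29, 5.09 and 5.8 FPKM (mean 5.39 ± 0.366). The T cell markers CD3D and CD3E had 0 and 9 counts in the same libraries. CCND1 made up 90.3% of the D cyclins and AKT1 69.4% of the AKT kinases. The survival genes MCL1 and BCL2L1 were at 51.5 ± 0.58 FPKM and 47 ± 1.73 FPKM, whereas their relative BCL2 was at 0.24, 0.38 and 0.32 FPKM (mean 0.313 ± 0.0702), and TERT, the catalytic subunit of telomerase, at 0.3, 0.3 and 0.48 FPKM (mean 0.36 ± 0.104).

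Of 30 tumour suppressors, 24 were expressed, with a median of 4.53 FPKM. High in the list were BAX, a promoter of apoptosis, at 22.1, 24.7 and 23.8 FPKM (mean 23.6 ± 1.31), RB1, which restrains entry into S phase, at 20, 18.4 and 20 FPKM (mean 19.5 ± 0.892) and CDKN2A at 19.2, 18.5 and 19.7 FPKM (mean 19.1 ± 0.589). CDKN1A, an inhibitor of cyclin-dependent kinases, stood at only 1.19, 1.3 and 1.16 FPKM (mean 1.22 ± 0.0737). SMAD4, the common partner of TGF-beta and BMP signalling, was near 0 at 0.05, 0.11 and 0.09 FPKM (mean 0.0833 ± 0.0306) from 63 counts, below SMAD2 at 1.18, 1.11 and 1.18 FPKM (mean 1.16 ± 0.0404) and SMAD3 at 7.77, 7.23 and 7.63 FPKM (mean 7.54 ± 0.28). The secreted Wnt antagonists SFRP1 and SFRP2 had 0 counts and DCC had 2. APC, the scaffold lost early in colorectal cancer, was transcribed at 4.37, 4.37 and 4.73 FPKM (mean 4.49 ± 0.208). Transcript levels say nothing of the protein made or of sequence changes in these genes. Of 12 genes of mismatch repair, polymerase proofreading and other DNA repair, 11 were expressed, and the list's median was 7.92 FPKM. Among them were MSH6 at 12.1, 12.9 and 11.8 FPKM (mean 12.2 ± 0.595), POLD1 at 10.9, 9.69 and 11.1 FPKM (mean 10.5 ± 0.746) and EXO1 at 10.4, 9.83 and 9.83 FPKM (mean 10 ± 0.312). MGMT, which removes alkyl groups from guanine, was the exception at 0.03, 0.1 and 0.07 FPKM (mean 0.0667 ± 0.0351).

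Receptor tyrosine kinases were selective, with 22 of 58 expressed, beside 51.1% of all protein-coding genes, 16 without a count and a median of 0.213 FPKM. MET, the receptor of hepatocyte growth factor, was highest at 36, 33.6 and 34.1 FPKM (mean 34.6 ± 1.27), followed by the ephrin receptor EPHA2 at 30.3, 30.4 and 33 FPKM (mean 31.2 ± 1.52) and ERBB3 at 22, 20.4 and 21.2 FPKM (mean 21.2 ± 0.826). MET and EPHA2 did not overlap between libraries. Within the ERBB family, ERBB3, which has little kinase activity of its own, made up 82.6%, ERBB2 16.4% and EGFR 1.01% of the summed FPKM. ERBB2 stood at 3.78, 4.41 and 4.41 FPKM (mean 4.2 ± 0.364) and EGFR, the target of cetuximab, at 0.23, 0.25 and 0.3 FPKM (mean 0.26 ± 0.0361), while ERBB4 had 0 counts. KIT, ALK, ROS1, FGFR2, KDR and PDGFRA also had 0 counts, and their limits lay at or below 0.00956 FPKM. IGF1R and INSR were transcribed at 3.71 ± 0.17 FPKM and 1.38 ± 0.0451 FPKM. ROR1 missed the threshold in 1 library with 1.71, 0.98 and 1.44 FPKM (mean 1.38 ± 0.369), and EPHA4 just met it with 1.03, 1 and 1.16 FPKM (mean 1.06 ± 0.085).

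Some ligands were transcribed along with their receptors. FGF19, an endocrine fibroblast growth factor of the ileum, was the highest of 35 ligands at 97.7, 98.3 and 99.9 FPKM (mean 98.6 ± 1.14). FGFR4, its main receptor, was at 10.3, 9.76 and 10.1 FPKM (mean 10.1 ± 0.287) and made up 71.9% of the FGF receptors, while the co-receptor KLB stood at 0.1, 0.15 and 0.12 FPKM (mean 0.123 ± 0.0252). GAS6 was at 23.8, 23.9 and 25.1 FPKM (mean 24.3 ± 0.742), with its receptors AXL at 3.03, 2.23 and 2.76 FPKM (mean 2.67 ± 0.407), TYRO3 at 2.32, 2.59 and 2.66 FPKM (mean 2.52 ± 0.18) and MERTK at 0.4 ± 0.05 FPKM. The EGFR ligands TGFA, HBEGF and AREG stood at 8.39 ± 0.537 FPKM, 5.76 ± 0.48 FPKM and 2.33 ± 0.745 FPKM, each above the level of EGFR itself. VEGFA, the endothelial growth factor, ranked next after GAS6 at 10.2, 9.87 and 9.69 FPKM (mean 9.94 ± 0.286). HGF, the ligand of MET, had 0 counts, as did EGF, NRG3, INS, PDGFD and GDNF. In all, 11 ligands were expressed, with a median of 0.293 FPKM.

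**Figure D4:**
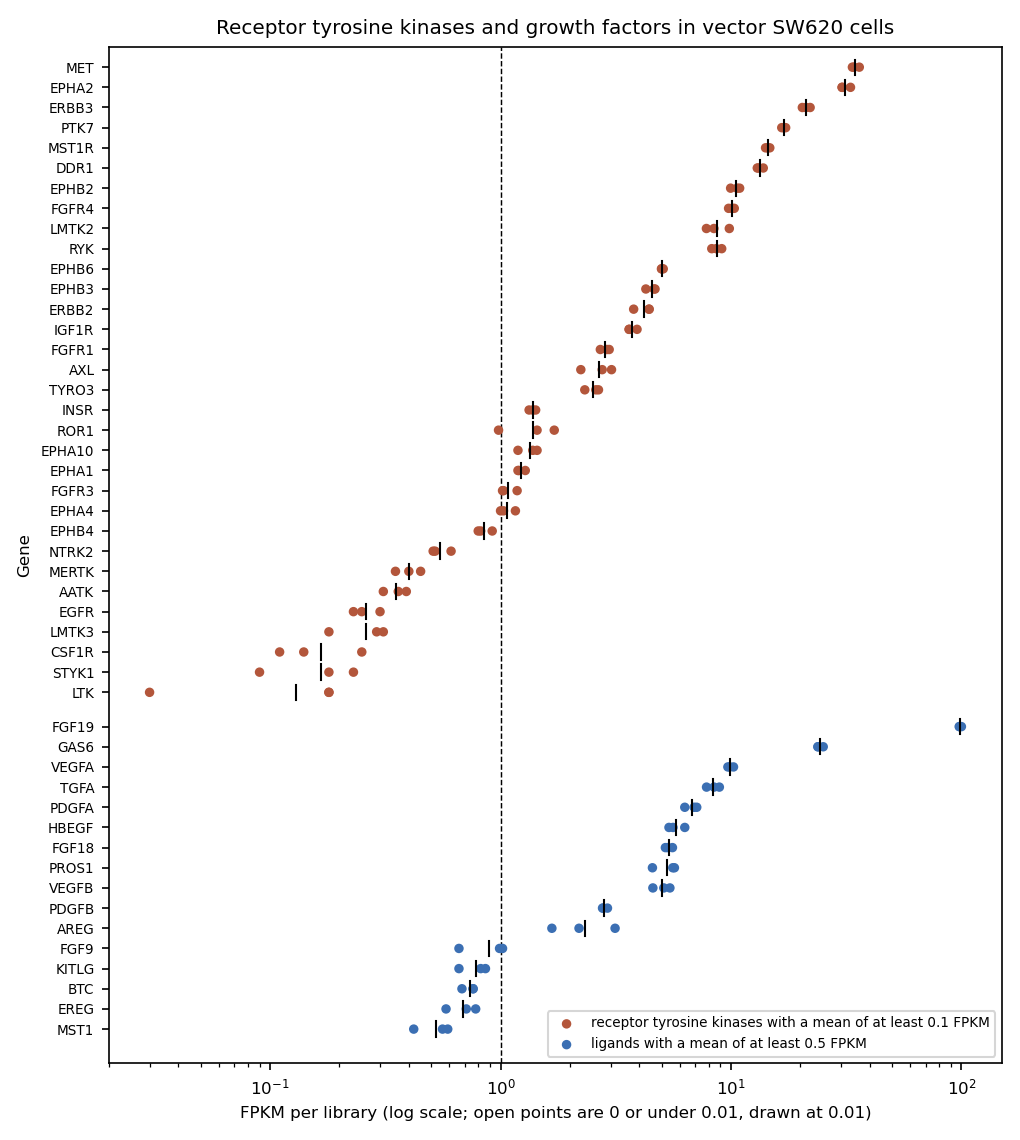
FPKM in each vector library (points, log scale; short bars at the mean) for receptor tyrosine kinases with a mean of at least 0.1 FPKM and for growth factor ligands with a mean of at least 0.5 FPKM, with a dashed line at 1 FPKM. MET, EPHA2 and ERBB3 lead the receptors, EGFR lies left of the line, and FGF19 at 98.6 FPKM leads the ligands.

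Of 48 nuclear receptors, 22 were expressed, 11 had no count and the median was 0.572 FPKM. The orphan receptor ESRRA, a regulator of mitochondrial genes, was highest at 24.5, 21.7 and 23.3 FPKM (mean 23.2 ± 1.41), then HNF4A and NR2F6 at 12.9, 14.3 and 12.2 FPKM (mean 13.1 ± 1.06). VDR, the vitamin D receptor, and PPARG stood at 4.37, 3.8 and 4.06 FPKM (mean 4.08 ± 0.285) and 3.3, 3.08 and 2.9 FPKM (mean 3.09 ± 0.2), and PPARD overlapped with PPARG. Steroid receptors were at or near 0: PGR had 0 counts, ESR1 had 7, and the glucocorticoid receptor NR3C1 was at 0.1, 0.07 and 0.03 FPKM (mean 0.0667 ± 0.0351). NR1H4, the bile acid receptor that induces FGF19 in the ileum, also had 0 counts, as did RORB, RXRG and NR5A2. RXRB, a shared partner of many receptors, made up 75.5% of the RXR family.

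For Wnt, TGF-beta, Notch and Hedgehog signals, 15 of 29 receptors were expressed, with a median of 1.1 FPKM. The Wnt co-receptors LRP5 and LRP6 led at 65.9, 63.2 and 65.4 FPKM (mean 64.8 ± 1.43) and 29.8, 25.9 and 27.7 FPKM (mean 27.8 ± 1.9), and FZD10 and FZD5 made up 45.5% and 24.9% of the Frizzled receptors. TGFBR2, the type II TGF-beta receptor, stood at 22.9, 22.8 and 23.4 FPKM (mean 23 ± 0.307). NOTCH1 was at 3.94, 3.67 and 3.99 FPKM (mean 3.87 ± 0.172) and made up 88.9% of the Notch receptors, and BMPR1B had 0 counts. Of 34 cytokine, chemokine, Toll-like and death receptors, 12 were expressed, with a median of 0.628 FPKM. TNFRSF10B and TNFRSF10A, the death receptors of TRAIL, stood at 26.2, 27.4 and 25.7 FPKM (mean 26.4 ± 0.842) and 12.4, 12.6 and 12 FPKM (mean 12.3 ± 0.307), but FAS, the receptor of FAS ligand, was at 0.29, 0.22 and 0.23 FPKM (mean 0.247 ± 0.0379). IL13RA1 was at 21.2 ± 0.151 FPKM and TNFRSF1B at 19.2 ± 1.32 FPKM. Both chains of the interferon gamma receptor, IFNGR1 and IFNGR2, were expressed at 17.5 ± 0.508 FPKM and 14 ± 0.811 FPKM, and CXCR1, CXCR2, CCR6 and ACKR3 had 0 counts.

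Antigen presentation genes of class I were on and those of class II off. HLA-C stood at 78.9, 86.8 and 83.7 FPKM (mean 83.1 ± 4.02) and HLA-B at 4, 4.44 and 4.13 FPKM (mean 4.19 ± 0.226), and the values of the pair did not overlap between libraries, though reads of these polymorphic near copies may be split or lost in alignment. B2M, the shared light chain, was at 58.7, 62.5 and 62.8 FPKM (mean 61.3 ± 2.28). HLA-DRA had 2 counts, and its activator CIITA was at 0.0933 ± 0.0252 FPKM. CD274, which encodes PD-L1, stood at 0.23, 0.09 and 0.31 FPKM (mean 0.21 ± 0.111), and PDCD1LG2 and VTCN1 had 0 counts. Of the 21 genes in the list, 12 were expressed, with a median of 4.19 FPKM. Only 8 of 35 selected G protein-coupled receptors were expressed, with a median of 0.0867 FPKM. NTSR1, the neurotensin receptor, was highest at 26, 26.9 and 25.9 FPKM (mean 26.2 ± 0.543), although NTS, the gene of neurotensin, had 0 counts. F2RL1, the protease-activated receptor 2 gene, and GPRC5A followed at 13.7, 12.7 and 12.9 FPKM (mean 13.1 ± 0.503) and 11.6, 10.9 and 11.5 FPKM (mean 11.3 ± 0.378). S1PR3, FFAR1, FFAR3, CASR and SSTR4 had 0 counts.

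Central carbon metabolism was broadly transcribed. Of 35 glycolytic enzymes and transporters, 23 were expressed and the median was 13.5 FPKM. After GAPDH, ENO1 stood at 434, 442 and 452 FPKM (mean 443 ± 8.82) and TPI1 at 341, 347 and 365 FPKM (mean 351 ± 12.3), and the liver, muscle and testis forms SLC2A2, PGAM2 and PGK2 had 0 counts. SLC2A1, the basal glucose transporter, made up 81.7% of its family at 96, 92.2 and 98.8 FPKM (mean 95.7 ± 3.32). Hexokinase was shared by HK2 (41.2%), HKDC1 (37.6%) and HK1 (21.1%), in the same order in every pair of libraries. LDHA, which turns pyruvate into lactate, made up 70.2% of lactate dehydrogenase at 298, 283 and 307 FPKM (mean 296 ± 12.4), and PKM made up nearly the whole of pyruvate kinase at 225 ± 3.1 FPKM. ALDOA was listed at only 13.5 ± 0.993 FPKM, with 53.5% of its exonic bases shared with another annotated gene; where reads in shared exons were left uncounted, such a level is too low, so its share of aldolase is uncertain.

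**Figure D5:**
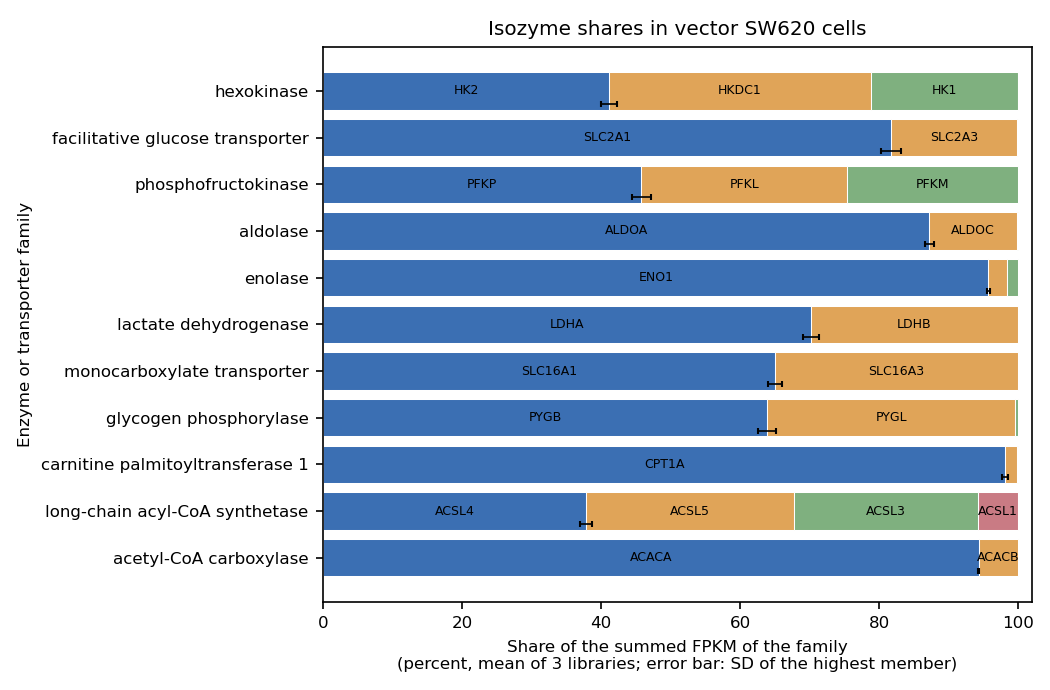
Share of the summed FPKM of 11 enzyme or transporter families held by each member in the vector libraries (stacked bars in order of level, mean of 3 libraries; error bars are the SD of the highest member; members above 5% are named). ENO1, CPT1A and ACACA hold over 90% of their families, whereas hexokinase, phosphofructokinase and long-chain acyl-CoA synthetase are divided among 3 or more members.

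Of 14 genes of glucose synthesis and glycogen, 7 were expressed, a share near the background of 51.1%, with a median of 2.54 FPKM. PCK1, the cytosolic phosphoenolpyruvate carboxykinase, was at 0.05, 0.12 and 0.08 FPKM (mean 0.0833 ± 0.0351), and mitochondrial PCK2 stood at 32.8, 33.9 and 33.8 FPKM (mean 33.5 ± 0.595). FBP1, a fructose bisphosphatase, was at 0.05, 0.51 and 0.22 FPKM (mean 0.26 ± 0.233), and its mean without library 2 was 0.135 FPKM. Among glucose-6-phosphatases, G6PC3 was expressed at 10.7, 10.8 and 10.9 FPKM (mean 10.8 ± 0.0929), while G6PC1 and G6PC2, and also the glycogen synthase GYS2, had 0 counts. PC, the pyruvate carboxylase, stood at 5.33, 4.55 and 5.03 FPKM (mean 4.97 ± 0.393). Glycogen phosphorylase came from PYGB at 47.8, 47.8 and 46 FPKM (mean 47.2 ± 1.03) and PYGL at 26.5, 25.4 and 27.4 FPKM (mean 26.4 ± 0.976), which made up 63.8% and 35.8%. The pentose phosphate pathway, which supplies ribose and NADPH, had 7 of 8 genes expressed and a median of 25.6 FPKM, led by TALDO1 at 71.8 ± 2.73 FPKM, PGD at 64.4 ± 0.742 FPKM and RPE at 28.9 ± 0.615 FPKM.

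The citrate cycle and glutamine use were the most complete of the larger lists, with 34 of 36 genes expressed and a median of 17.7 FPKM; GLUD2 was below 1 FPKM and the testis gene PDHA2 had no count. The glutamine carrier SLC1A5 was highest at 171, 178 and 183 FPKM (mean 177 ± 6.18), then the neutral amino acid exchanger SLC7A5 at 115, 113 and 112 FPKM (mean 113 ± 1.76) and the malate dehydrogenase MDH2 at 67.3, 70.1 and 68.6 FPKM (mean 68.7 ± 1.4). Of 29 amino acid and one-carbon genes, 20 were expressed, with a median of 21.6 FPKM. PSAT1, the serine pathway aminotransferase, was at 248, 244 and 245 FPKM (mean 246 ± 2.38), ODC1, the first enzyme of polyamine synthesis, at 225, 233 and 228 FPKM (mean 229 ± 4.13), and SHMT2, which moves serine carbon to folate, at 135, 139.7 and 138 FPKM (mean 138 ± 2.69). PYCR1, the last enzyme of proline synthesis, was at 109.6, 115 and 110.0 FPKM (mean 112 ± 3.11). PSAT1 lay above PHGDH, the enzyme before it, which stood at the list's median with 21.2, 21.7 and 21.9 FPKM (mean 21.6 ± 0.373). Of the urea cycle, ASS1 was at 54.1, 57.4 and 57.1 FPKM (mean 56.2 ± 1.8), CPS1 had 1 count and OTC had 0. ASNS, asparagine synthetase, stood at 3.45, 3.49 and 3.37 FPKM (mean 3.44 ± 0.0611).

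Lipid genes were expressed in 25 of 31 cases, with a median of 8.64 FPKM. SCD, the desaturase that makes oleate, led at 124, 119 and 123 FPKM (mean 122 ± 2.96), then the mitochondrial dehydrogenase ACADVL at 65.5, 62.1 and 64.9 FPKM (mean 64.2 ± 1.79) and the droplet coat protein PLIN2 at 60.7, 56.5 and 63.8 FPKM (mean 60.3 ± 3.65). Genes of synthesis and of oxidation were on together, with FASN at 32.7, 32.7 and 31.7 FPKM (mean 32.4 ± 0.555) and CPT1A at 28.5, 26.6 and 25.1 FPKM (mean 26.7 ± 1.69). HMGCS1, an enzyme of cholesterol synthesis, was at 16.6, 16.3 and 16.6 FPKM (mean 16.5 ± 0.18).

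Nucleotide and topoisomerase genes, some of them targets of colorectal chemotherapy, were well transcribed, with 14 of 16 expressed and a median of 20.8 FPKM. TOP2A, RRM1 and TK1 were highest at 155 ± 2.71 FPKM, 78.4 ± 0.797 FPKM and 61 ± 2.81 FPKM. TYMS, the target of 5-fluorouracil, stood at 25.6, 25.8 and 23.8 FPKM (mean 25.1 ± 1.09) and TOP1, the target of irinotecan, at 30.8, 31.4 and 30.6 FPKM (mean 30.9 ± 0.433). DPYD, which degrades 5-fluorouracil, was near 0 at 0.03, 0.02 and 0.01 FPKM (mean 0.02 ± 0.01), as was TYMP at 0.13, 0.12 and 0.08 FPKM (mean 0.11 ± 0.0265). Among 28 xenobiotic enzymes and drug carriers, 12 were expressed and the median was 0.712 FPKM. GSTP1, a glutathione transferase, and NQO1, a quinone reductase, stood at 336, 353 and 340.0 FPKM (mean 343 ± 9.1) and 224, 225 and 228 FPKM (mean 226 ± 2.21), followed by CES2, a carboxylesterase that activates irinotecan, at 19.4, 19.4 and 18.8 FPKM (mean 19.2 ± 0.318). The efflux pump ABCB1 was under 1 FPKM at 0.46, 0.39 and 0.36 FPKM (mean 0.403 ± 0.0513), ABCC1 was at 11.5, 10.4 and 11 FPKM (mean 11 ± 0.526), and UGT1A6, CES1 and GSTA1 had 0 counts.

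Over all 36 lists, 433 of 831 symbols found in the table were expressed, a share near the background of 51.1%. No count was found for 112, beside a background of 19.9%, with limits from 0.00199 FPKM for NTRK3 to 0.114 FPKM for DEFA6. All 15 reference genes were expressed, from GAPDH, EEF1A1 (776 ± 32.1 FPKM) and ACTB (589.6 ± 12.4 FPKM) at the top to TBP (8.79 ± 0.199 FPKM) at the bottom, with a median of 111 FPKM. Near the threshold, the lowest library read 1.00 FPKM for CCNE1 and FOS, inside it, and 0.98 FPKM for KRT17 and ACVR2B and 0.97 FPKM for IL6R, outside it. ELAPOR1, the gene used in the other arm of the series, stood at 1.26, 1.2 and 0.95 FPKM (mean 1.14 ± 0.164), under 1 FPKM in library 3 and so outside the rule. The strand setting of the counting was not given in the labels, and reads from a gene and an overlapping antisense gene are therefore not separable. Genes that share exonic bases with another annotated gene may be listed too low or carry reads of the neighbour; this held for 1028 expressed protein-coding genes (10.1%) at 20% or more of their bases. Beside the shares given above, examples among those described were 46.6% for TYMS, 44% for VIL1, 43.2% for CDK4 and 43% for BCL2L1. Lower shares were 25.6% for RPS2, 25.2% for AXIN2, 24.4% for VIM, 23.8% for SLC1A5, 23.3% for ARHGEF25 and 21.4% for RPS28.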

How the data were processed

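Gene expression was measured by poly(A) RNA sequencing, and 3 vector libraries entered every value. The authors deposited unnormalized read counts per gene, which summed to between 16401813 and 20571924 per library; per the submitters' processing notes the tools named were cutadapt 1.9.1, HISAT2 2.0.1, HTSeq 0.6.1 and DESeq2, with the GRCh38 build. FPKM values were deposited by the authors in the same table, and every one lay within 0.005 of the count divided by the table's exonic length and the library total. Columns were matched by their names, with NC read as the negative control, that is, the vector. The fold changes of the authors' own comparison and the ELAPOR1 libraries were not used here.

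Means and SDs were computed from the deposited FPKM in Python 3.11.15 with pandas 2.3.3. A gene counted as expressed at 1 FPKM or more in all 3 libraries. A gene without a count was given an upper limit of 3 counts over the group. Biotypes came from GENCODE 29 by gene identifier (58337 of 60605 matched). Promoters came from RefSeq. No groups were compared and no test was run. Libraries were compared in pairs before averaging: the mean chi-square per gene was 2.57 to 3.64, above the value that sampling noise alone gives, so none was treated as a duplicate. The common biological coefficient of variation, 4.65% over 14821 genes, came from edgeR 4.0.16 (TMM factors, filterByExpr) in R 4.3.3. The calculation was tested on simulated data of these libraries, where a true value of 5% was estimated as 5.02% over 15058 genes. Every gene was given the same spread there, so the test does not cover genes that differ in spread. With 200 genes of wider spread planted, 152 were recovered among the 200 of highest dispersion.

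Members and lists were chosen with earlier results of these data known. The text names the 15 highest protein-coding genes, the 10 most variable expressed ones, and from each list at least its 3 highest members and up to 6 members without a count, though some genes that this rule selects are not reported here; the HOX and SOX lists, the promoters shown and the genes SMN2, KLB, NTS, ELAPOR1, HMGA1, CD24, GAL, CXCL8, APOBEC3B and IGF2BP1 were added after values were seen. Alternatives were other thresholds, TPM, counts, other normalizations, DESeq2 1.42.0 dispersions, genes with little exonic overlap, and each library left out in turn.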

Additional observations from a re-analysis of the deposited data

How the results depend on the processing

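Raising the threshold to 5 FPKM lowered the count of expressed genes from 11665 to 6966 and of protein-coding genes from 10143 to 6584; at 0.5 FPKM, 1 TPM, a mean of 1 FPKM or 10 counts per library the counts stayed within 1.5 times, at 12408 to 14778 genes and 10354 to 12165 protein-coding genes. The expressed list members moved from 433 to between 308 (5 FPKM) and 537 (10 counts), and restricting to genes with under 20% of exonic bases shared, an alternative chosen after seeing the data, gave 397 of them and 9115 protein-coding genes. The share of the 10 most counted genes was 7.02%, 3.77% without mitochondrially encoded genes and 21.0% of summed FPKM. The median coefficient of variation was 5.52%, 23.6% with no filter and 3.44% for genes of at least 10 FPKM. The common biological coefficient of variation was 4.65% by edgeR and 2.79% as DESeq2's median gene-wise dispersion. Leaving out each library in turn gave 11876 to 11905 genes, 10207 to 10209 protein-coding genes, 435 to 436 list members, 6.99% to 7.06%, 4.25% to 4.69% and 3.87% to 5.14% for these measures. With fewer libraries the rule asks for 1 FPKM in fewer of them. The median SD of fewer values also tends to lie lower, so the range of 4.25% to 4.69% is not comparable with 5.52%. TPM values were 3.38 times the FPKM by construction, and under TMM scaling 2 of 811 named genes, IL1R1 and MYOD1, moved by more than their SD, which is 0 because each was listed at 1 value in all libraries. No paired analysis was possible because the results come from no test and 1 group only. Depth limits genes without a count to the upper limits given beside them, and the spread of genes under 10 FPKM is mostly wider than that of higher ones.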

Other observations

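Of 19 SOX factors, 8 were expressed, with a median of 0.307 FPKM. SOX2, SOX4 and SOX9 stood together at 61.8 ± 0.27 FPKM, 57.5 ± 1.7 FPKM and 50.7 ± 2.82 FPKM, and SOX2 lay above SOX4 in every pair of libraries. SOX3, SOX11, SOX14 and SOX17, the last a factor of endoderm, had 0 counts. Other high single genes were HMGA1, an architectural chromatin protein, at 348, 369.6 and 349 FPKM (mean 356 ± 12.2), the surface glycoprotein CD24 at 98.6, 101 and 104 FPKM (mean 101 ± 2.46), the neuropeptide galanin, GAL, at 39.1, 39.6 and 34.5 FPKM (mean 37.7 ± 2.8), the cytidine deaminase APOBEC3B at 32.1, 33.8 and 33.9 FPKM (mean 33.3 ± 1.01), the chemokine CXCL8 at 16.6, 17.7 and 18.5 FPKM (mean 17.6 ± 0.969) and the RNA-binding protein IGF2BP1 at 16.1, 15.4 and 15.6 FPKM (mean 15.7 ± 0.356).

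Among 14515 long noncoding genes, 758 were expressed, beside 11665 of all 60605 genes and 51.1% of protein-coding genes. NORAD, a noncoding RNA that binds Pumilio proteins, was highest at 141, 134 and 136 FPKM (mean 137 ± 3.41), followed by the small nucleolar RNA hosts SNHG29 at 84.5 ± 3.02 FPKM and SNHG1 at 81 ± 2.2 FPKM. LINC00460 stood at 54.7 ± 1.73 FPKM and MALAT1 at 33.3 ± 1.99 FPKM.

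Several processed pseudogenes were listed above their parent genes on the FPKM scale. RPL41P1, of 81 exonic bases, was at 7817 ± 334 FPKM and RPL41 at 419 ± 14 FPKM. RPL39P3 was at 2678 ± 38.4 FPKM against 16.3 ± 0.966 FPKM for RPL39, PPIAP22 at 1871 ± 74 FPKM against 162 ± 3.46 FPKM for PPIA, and RPS28P7 at 943 ± 30.8 FPKM against 4.06 ± 0.269 FPKM for RPS28. Reads of these copies and their parents cannot be told apart with certainty, so the levels of such short ribosomal genes are uncertain.

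By chromosome, the share of protein-coding genes expressed ran from 39.8% on X to 58.4% on chromosome 16, and the median level of expressed genes from 5.59 FPKM on chromosome 18 to 12 FPKM on chromosome 20, with 11.6 FPKM on X and 11 FPKM on chromosome 13. Copy number was not measured here.

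By the pathway annotation in the deposited table, which also holds members outside the textbook pathways, 67 metabolic pathways had at least 20 protein-coding genes. Terpenoid backbone biosynthesis had 23 of 27 expressed, lysine degradation 58 of 69, the citrate cycle 30 of 36 and aminoacyl-tRNA biosynthesis 47 of 58. At the other end were linoleic acid metabolism with 3 of 32, arachidonic acid metabolism with 12 of 69 and steroid hormone biosynthesis with 11 of 59.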
